A study of Mus musculus with 97 samples.

Results

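The comparison described here set sparse deletion of Cdk5r1 against its control in newborn mouse cortex. Its members were the P0 libraries of the Cdk5r1 data set labelled Cdk5r1-MADM (6) or control-MADM (12), chosen by genotype and age alone, which makes 18 of the 97 libraries of the series. MADM, mosaic analysis with double markers, exchanges chromosome arms between the copies of a chromosome in dividing cells and colours the daughter cells. Each library held polyadenylated RNA from 2000 green (GFP+) cells sorted from the cortex of a CD1 mouse on the day of birth (P0). All groups carried the MADM-11 cassettes on chromosome 11 and Emx1-Cre, whose recombinase acts in progenitors of the dorsal forebrain. The control genotype was MADM-11 GT/TG;Emx1-Cre, in which no cell lacks Cdk5r1. The sparse genotype was MADM-11 GT/TG,Cdk5r1;Emx1-Cre, in which green cells lack Cdk5r1 and most of the surrounding cortex keeps 1 working copy. A group with all cells mutant, KO-Cdk5r1-MADM with the deletion on both the GT and the TG chromosome (10 libraries), was fitted with them so that the spread between libraries was estimated over more samples. The question was how large the changes are in mutant cells when most of their neighbours keep 1 working copy. Control cells came from other animals, so effects of loss within the cell and of surroundings with 1 working copy cannot be told apart.

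Cdk5r1 encodes p35, a protein that binds and activates the kinase CDK5 in neurons. CDK5 with p35 phosphorylates proteins of the cytoskeleton and of adhesion, and cortical neurons that lack p35 migrate poorly and settle in the wrong layers. The related activator p39 is encoded by Cdk5r2, and CDK5 acts beside the Reelin and Dab1 pathway in positioning neurons.

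Depth differed little between the groups. Libraries of control-MADM had 3635070 to 5480448 reads on genes (median 4473665) and those of Cdk5r1-MADM had 2356133 to 5692309 (median 4249120.5). Uniquely aligned reads made up 71.49% to 75.88% of reads in control-MADM and 73.81% to 78.45% in Cdk5r1-MADM, and no library was left out. Both sexes were present in each group, with 7 female and 5 male control-MADM libraries and 3 of each sex in Cdk5r1-MADM, as read from Xist and genes of the Y chromosome. Levels below are counts scaled to the same number of reads on genes in each library (CPM).

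A pair of Cdk5r1-MADM libraries stood apart from the rest of their group in some values. Replicate 4 had the highest share of uniquely aligned reads (78.45%, against at most 75.12% in the others) and the lowest summed level of ribosomal protein genes. Replicate 3 had the highest summed level of endothelial genes. Of 177 groups of values examined for a library far from the rest, 32 had such a library. Of these, 17 were replicate 4 and 7 were replicate 3. Some groups were genes named for a small p in this comparison, among them Col18a1, Fbln5 and Cldn5 in replicate 3. The counts therefore describe the values examined and do not show separately that a library stands apart. Estimates that change most with them are given below with and without them. Among the controls, replicates 5 and 6 had the lowest shares of reads on genes (46.07% and 49.52%, against at least 54.58% in the other controls). Replicate 5 had the lowest summed level of ribosomal protein genes of its group. In chi-squared distance per degree of freedom from each library of its group, control-MADM replicate 5 was at 21.2 to 60.1. By that distance Cdk5r1-MADM replicate 4 was at 14.8 to 27.1. Replicate 3 was at 4.02 to 8.21, apart from its distance to replicate 4 (23.8). The libraries also fell into 2 classes by their mitochondrial reads. The 6 Cdk5r1-MADM libraries and control-MADM replicates 5 to 10 had reads on mt-Nd3, and the other 6 control-MADM libraries had reads on the pseudogene Gm28438 in its place. Values from a comparison with the 6 controls of the mt-Nd3 class alone are therefore given beside many of the results. Replicates 5 and 6 are among these 6, so values without them are given where the direction turns on them.

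The libraries held RNA of several cell types. Among genes of cortical projection neurons, Tubb3, a neuronal tubulin, had median levels of 3420 CPM in control-MADM and 3044 CPM in Cdk5r1-MADM. Neurod6, a transcription factor of excitatory cortical neurons, had medians of 394 and 341 CPM, and Cux1, a factor of upper-layer neurons, had medians of 336 and 339 CPM. The radial glia gene Fabp7 (2820 and 3087 CPM) and the astrocyte gene Apoe (2273 and 2790 CPM) were also read at high levels. Whether this RNA came from labelled cells or was carried over in the sort was not tested. Defining genes of Cajal-Retzius cells were nearly absent, with Lhx1, Ebf2 and Ebf3 at or below 3 counts in all 18 libraries and Lhx5 at a median of 0 CPM in each group.

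The deleted gene itself comes before the others. Cdk5r1 (ENSMUSG00000048895.13) has 4162 bases of exons on chromosome 11. Its lowest, median and highest levels in control-MADM were 138, 182 and 251 CPM. In Cdk5r1-MADM the lowest, median and highest were 53.2, 66.2 and 122 CPM. All 6 Cdk5r1-MADM libraries lay below every control, and replicate 4 lay closest to them, since the other 5 were at or below 75.3 CPM. The log2 fold change was -1.32 (95% interval -1.61 to -1.02, adjusted p = 4.81e-06 from edgeR with the Benjamini-Hochberg method). Without Cdk5r1-MADM replicate 4 it was -1.53. A gene is called here when this adjusted p is under 0.05, and rose and fell are used only of called genes. Counts cover the whole gene, so reads from parts of it that the deletion leaves are included.

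**Figure D1:**
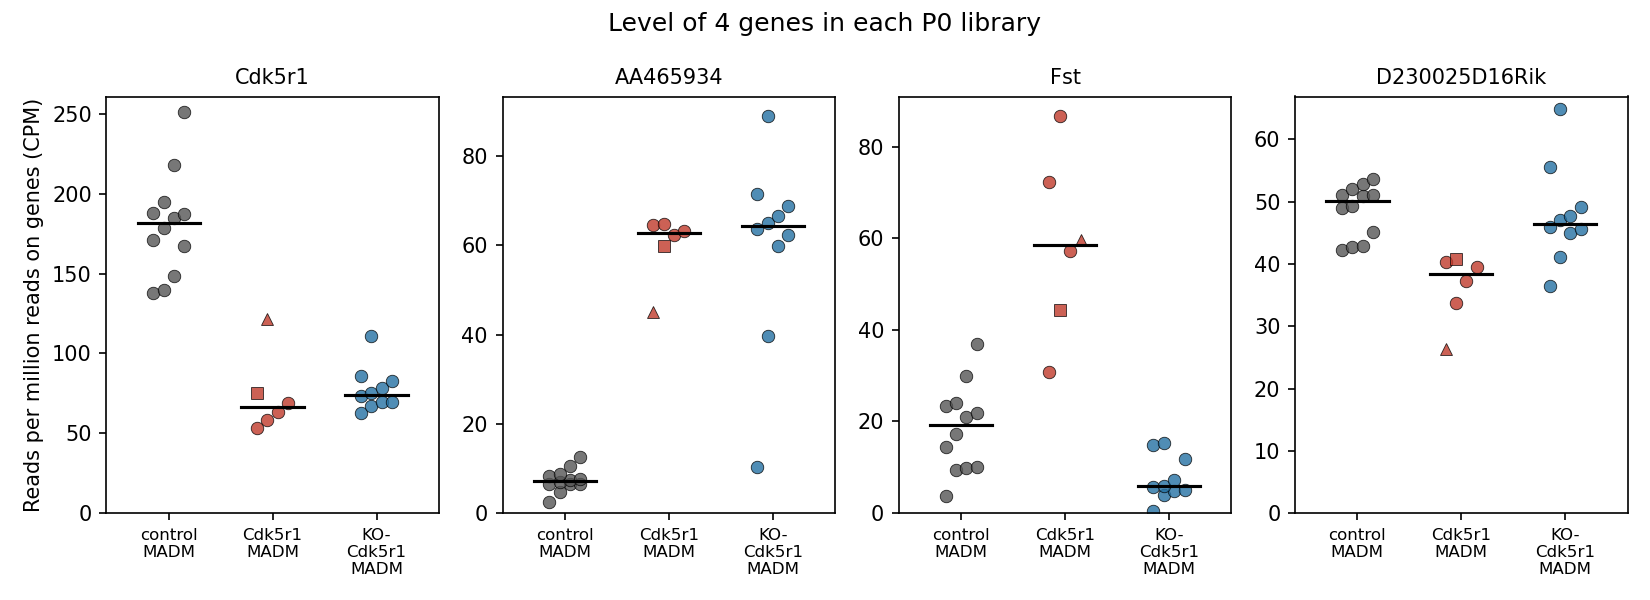
Each point is a P0 library and its height the level in CPM, with the group median as a line, the square marking Cdk5r1-MADM replicate 3 and the triangle replicate 4. Cdk5r1 was at 122 CPM or less in all Cdk5r1-MADM libraries and at 138 CPM or more in all controls, and AA465934 was at 45.2 CPM or more against at most 12.6 CPM.

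Of 13087 tested genes, 2 were called (0.0153%), Cdk5r1 and AA465934 (ENSMUSG00000093483.1), of which 1 fell (0.00764%) and 1 rose (0.00764%). AA465934 is annotated as a processed transcript, a gene without a coding sequence, on chromosome 11 from 83291699 to 83294632 on the forward strand. Its lowest, median and highest levels were 2.48, 7.14 and 12.6 CPM in control-MADM. In Cdk5r1-MADM they were 45.2, 62.8 and 64.9 CPM. The groups did not overlap, and 5 of the 6 Cdk5r1-MADM libraries were between 60.0 and 64.9 CPM, with replicate 4 below them. The log2 fold change was 3.00 (95% interval 2.46 to 3.53, adjusted p = 6.7e-09 from edgeR), and it was 3.06 without replicate 4.

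The level of AA465934 in libraries outside the comparison also varied, and not only with Cdk5r1. In KO-Cdk5r1-MADM at P0, 9 of 10 libraries were between 39.7 and 89.1 CPM, and replicate 10 was at 10.4 CPM, within the range of the controls. Against the same control-MADM libraries, KO-Cdk5r1-MADM had a log2 fold change of 3.00. At E16, 8 of the 12 control-MADM libraries had 40.9 to 159 CPM and the other 4 had 7.87 to 13.5 CPM, while the 7 well aligned Cdk5r1-MADM libraries had 38.9 to 76.5 CPM. High levels were thus found in control libraries at E16 and not at P0. All 11 KO-Cdk5r1-MADM libraries at E16 were above the highest P0 control, at 23.7 to 76.8 CPM. So were 7 of 8 Cdk5r1-MADM libraries at E13, with replicate 2 at 892 CPM, and the other, replicate 5, was at 0 CPM. Replicates 2 and 5 both had 0 CPM of Cdk5, where the group median was 90.6 CPM, so their values of AA465934 are uncertain. In the P0 controls of the Dab1 data set, labelled MADM-5 GT/TG;Emx1-Cre, AA465934 was at 4.33 to 12.7 CPM. The paper describes these controls as MADM-11 animals, so which cassettes they carried is not settled here. Whether the animals of the Cdk5r1 data set differed in the chromosome 11 sequence carried with the MADM-11 cassettes was not tested, so the rise cannot be assigned to the loss of Cdk5r1.

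The sequence around the start of AA465934 is shown because no other gene rose. The RefSeq promoter table (GRCm38.p6) gives chr11:83291449-83291748 on the forward strand, from 250 bases before the start. Capitals mark matches to CCAAT and CACGTG, searched with TATAAA on both strands.
AA465934: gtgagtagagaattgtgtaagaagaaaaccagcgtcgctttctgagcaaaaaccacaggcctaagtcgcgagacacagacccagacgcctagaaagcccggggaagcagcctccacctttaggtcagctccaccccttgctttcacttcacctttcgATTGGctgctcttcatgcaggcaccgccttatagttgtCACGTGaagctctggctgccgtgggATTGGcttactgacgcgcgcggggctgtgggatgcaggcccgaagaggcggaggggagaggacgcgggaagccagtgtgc
CCAAT was present at 2 places, as ATTGG on this strand, and CACGTG at 1 place. No match to TATAAA was found. Of 32851 promoters of the same length, 37.4% held CCAAT, 7.15% held CACGTG and 13.6% held TATAAA.

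AA465934 lies 2810515 bases beyond Cdk5r1 on the chromosome that carries the MADM cassettes and the deletion, with 11 tested genes between them. Over all tested genes, 0.0153% were called by edgeR and 4.68% had an unadjusted p under 0.05. Within 1 Mb of Cdk5r1, 0 of 17 other tested genes were called, and 1 had an unadjusted p under 0.05. Of these 17, 12 had an estimate above 0 and 5 below 0 (median log2 fold change 0.03). The 1 gene was Rab11fip4, an effector of the recycling endosome GTPase Rab11. Its levels were 59.8, 95.7 and 128 CPM (lowest, median and highest) in control-MADM and 94.5, 116 and 228 CPM in Cdk5r1-MADM, where replicate 4 gave the highest value. Its log2 fold change was 0.44, and 0.21 without replicate 4. Psmd11, a proteasome subunit 3775 bases from Cdk5r1, had a log2 fold change of 0.12, and 0.02 without replicate 4. The myosin gene Myo1d, 942 bases away on the other side, had 0.34, and -0.00 without replicates 3 and 4.

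Around AA465934, 0 of 19 other tested genes within 1 Mb were called by edgeR (0.0153% of all genes were). An unadjusted p under 0.05 was found for 1 of them (4.68% of all genes). The 1 gene was Rasl10b, a small GTPase of the Ras family 114505 bases away. Its levels were 35.7, 65.4 and 99.5 CPM in control-MADM and 85.8, 104 and 149 CPM in Cdk5r1-MADM, and 4 of 6 Cdk5r1-MADM libraries were above every control. Its log2 fold change was 0.72 with an adjusted p of 0.978 from edgeR. Over chromosome 11 without Cdk5r1 and AA465934, 492 of 1033 tested genes had an estimate above 0 and 541 below 0, with a median of -0.01.

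**Figure D2:**
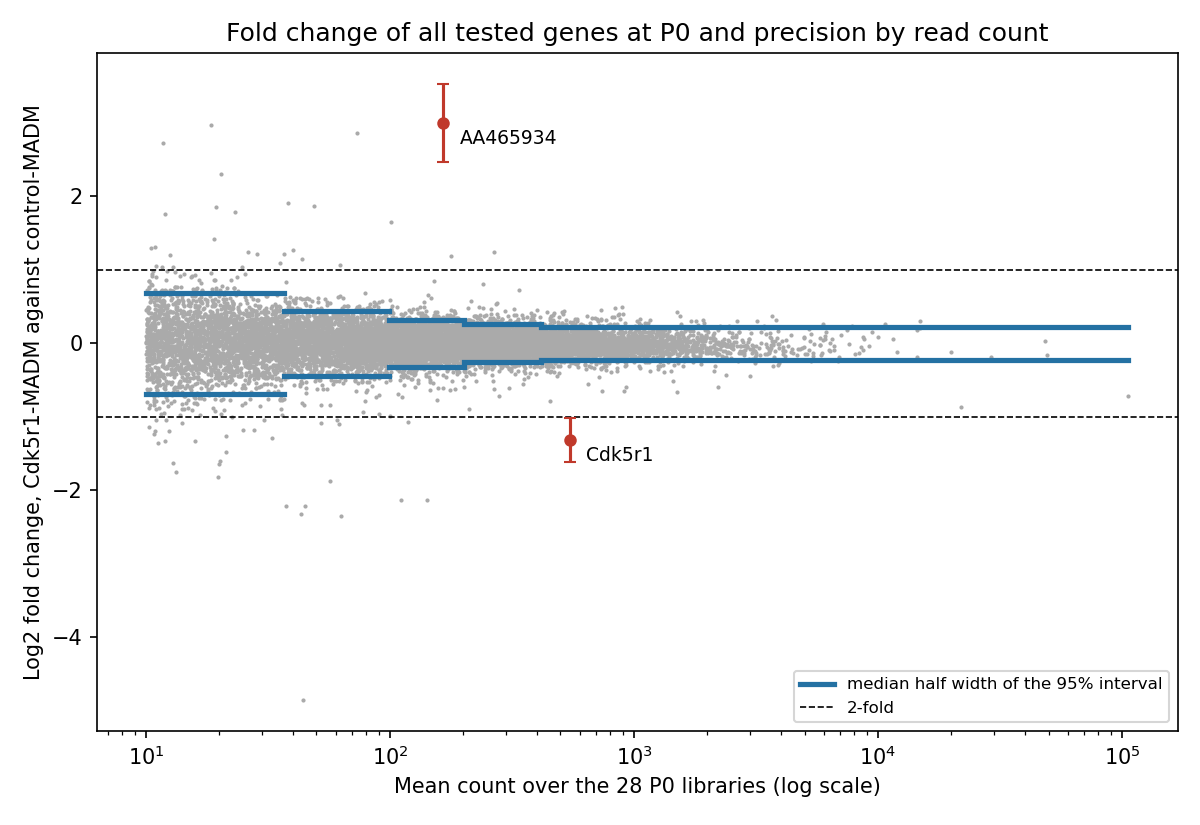
Each point is a tested gene, with its mean count over the P0 libraries on a log scale and its log2 fold change, and the blue lines give the median reach of the 95% interval to each side in 5 bins of mean count. Cdk5r1 and AA465934 are drawn with their intervals, and 62 genes had an estimate beyond 2-fold (dashed lines).

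Without adjustment, 613 genes had a p under 0.05 (4.68%) with edgeR, 275 with a higher estimate (2.10%) and 338 with a lower one (2.58%). DESeq2 called 2 genes as well and had 648 at an unadjusted p under 0.05. The count of 613 was 400 without Cdk5r1-MADM replicate 4 and 890 without control-MADM replicates 5 and 6. Estimates lay on both sides of 0, with 6499 genes above and 6588 below and a median of -0.00. The scaling between libraries places most estimates near 0, so this split does not measure the balance of changes. In 4 genes (0.0306%) the groups of libraries did not overlap. Besides Cdk5r1 and AA465934 these were D230025D16Rik, and Ppan, a factor of ribosome assembly named after its values were seen, whose log2 fold change was -0.20.

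Fst had the smallest p of the genes that were not called. It encodes follistatin, a secreted inhibitor of activins. Its levels were 3.77, 19.2 and 36.8 CPM in control-MADM and 30.8, 58.5 and 86.6 CPM in Cdk5r1-MADM. Replicate 1 of Cdk5r1-MADM lay within the control range and the other 5 lay above it. The log2 fold change was 1.64 (95% interval 0.88 to 2.40, adjusted p = 0.349 from edgeR). Over the alternative fits the adjusted p was between 0.0341 and 1, and it was under 0.05 only when edgeR was run without its legacy setting. In KO-Cdk5r1-MADM, which shares the controls, Fst was between 0.556 and 15.3 CPM, below the control median in all 10 libraries, with a log2 fold change of -1.30. At E16, in other libraries, the Fst estimate was 1.05 (adjusted p = 0.894 from edgeR).

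The gene next in the order by p was D230025D16Rik, of unknown function. It had 42.3, 50.2 and 53.6 CPM in control-MADM and 26.3, 38.4 and 40.8 CPM in Cdk5r1-MADM. All 6 Cdk5r1-MADM libraries were below all controls, with a log2 fold change of -0.45 (adjusted p = 0.548 from edgeR) and -0.37 without replicate 4. Dusp4, a phosphatase that inactivates MAP kinases, had 15.97, 35.3 and 46.3 CPM in control-MADM and 17.7, 19.3 and 22.5 CPM in Cdk5r1-MADM. Its 6 Cdk5r1-MADM values formed a narrow band in the lower part of the control range, with a log2 fold change of -0.78 (adjusted p = 0.923 from edgeR). The adjusted p of Dusp4 over the alternative fits was between 0.0371 and 1, and it was under 0.05 only in the fit that took the replicate number as a block and left out control-MADM replicates 7 to 12. Against controls of the mt-Nd3 class the estimate of Dusp4 was -0.45. Msi1, an RNA-binding protein of neural progenitors, had an estimate of -0.34, with all 6 Cdk5r1-MADM libraries below the control median. Wdcp, which encodes a WD-repeat protein, had an estimate of 0.61, with all 6 above it.

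The intervals of the fold changes bound what could have been missed in the average of the sorted cells. For 11780 of the 13087 genes (90.0%) the 95% interval lay within a 2-fold change in either direction, and for 8184 (62.5%) within a 1.5-fold change. The interval reached a median of 0.35 on the log2 scale to each side of the estimate. Precision followed the number of reads. In 5 bins of genes by mean count, from lowest to highest, the share bounded within 2-fold was 60.3%, 93.2%, 98.1%, 99.4% and 99.1%. In the lowest bin, with mean counts of 10.0 to 36.6, only 5.77% of genes were bounded within 1.5-fold, and in the highest bin 91.7% were. Among 12041 protein-coding genes, 91.9% were bounded within 2-fold. A change confined to a subset of the sorted cells would appear diluted in these averages, and these bounds do not apply to it.

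Of the genes not bounded within 2-fold, 645 had an interval that passed 2-fold upward, 610 downward and 52 in both directions. The estimate itself was beyond 2-fold for 62 genes, 28 higher and 34 lower, and 8 of those lower were pseudogenes. The whole interval lay beyond 2-fold for 5 genes. Besides Cdk5r1 and AA465934 these were Gm28438, Cldn5 and Gja4, the last of which was named after its values were seen. Gm28438 defines the mitochondrial class. It had 0, 3.81 and 16.1 CPM in control-MADM and at most 0.486 CPM in Cdk5r1-MADM, and its log2 fold change of -4.85 was 1.83 against controls of the same class. Cldn5, a tight junction protein of brain endothelium, was at 297 CPM in Cdk5r1-MADM replicate 3 and at most 24.4 CPM in the other 5 libraries, against at most 35.7 CPM in control-MADM. Its log2 fold change was 2.86, and 0.71 without replicate 3. Gja4, a connexin of vascular cells, was at 74.0 CPM in replicate 3 and at most 2.41 CPM in the others of its group, and it was under the mean count needed for a test without that library.

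The kinase gene Cdk5 had 118, 161 and 208 CPM in control-MADM and 118, 164 and 171 CPM in Cdk5r1-MADM. The ranges overlapped, and the log2 fold change of -0.06 had a 95% interval of -0.27 to 0.15. It turned to 0.01 without Cdk5r1-MADM replicate 4. Cdk5r2, which encodes the other activator, had 18.7, 38.3 and 49.2 CPM in control-MADM and 29.7, 33.0 and 46.6 CPM in Cdk5r1-MADM. Its estimate was -0.12 with an interval of -0.54 to 0.30, so a 2-fold difference in either direction lay outside the interval, and it was 0.01 against controls of the mt-Nd3 class. Of 13 genes for CDK5 and its regulators, 12 were bounded within 2-fold (92.3%, where over all genes it was 90.0%), and the exception was Cdk5r1. Of the 13, 3 had estimates above 0 and 10 below, and the median was -0.06, where over all genes it was -0.00.

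Gene lists are described below by the number of tested members with an estimate above or below 0 and by their median log2 fold change. In RNA from pooled cells, fewer cells of a type and less RNA per cell cannot be told apart. No list except that of CDK5 regulators held a called gene with edgeR. Members at an unadjusted p under 0.05 are read against 2.10% of all genes higher and 2.58% lower.

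The substrates of CDK5 in migrating neurons, such as the microtubule-binding proteins Dcx and Ndel1, were 30 genes, all tested and all bounded within 2-fold. Of these, 17 were above 0 and 13 below, with a median of 0.04, and without Cdk5r1-MADM replicates 3 and 4, 14 were above 0 and 16 below (median -0.01). The 1 member with an unadjusted p under 0.05 was Pak1, a kinase of the actin cytoskeleton, with an estimate of -0.23 that was -0.10 within the mt-Nd3 class. The adaptor Dab1, which carries the Reelin signal, had 252, 339 and 477 CPM in control-MADM and 350, 378 and 646 CPM in Cdk5r1-MADM. Replicate 4 gave that highest value, and the estimate of 0.27 was 0.10 without it. Within the mt-Nd3 class the estimate of Dab1 was 0.32 (unadjusted p = 0.0438 from edgeR). Of 30 genes of Reelin and Dab1 signaling, 18 were above 0 and 12 below (median 0.03), and 28 were bounded within 2-fold. The member of this list with the smallest p was the integrin Itga3, at -0.81, whose interval of -1.34 to -0.28 did pass 2-fold. At an unadjusted p under 0.05 with edgeR, Itga3 and Pik3r2 (-0.25) were lower. Rap1a was higher at that threshold, at 0.31, and at 0.21 without replicate 4. Of 47 genes of microtubules and the migration machinery, 18 were above 0 and 29 below (median -0.05), and all 47 were bounded within 2-fold. Without control-MADM replicates 5 and 6, 26 were above 0 and 21 below (median 0.04). The dynactin subunit Dctn1 (-0.21, and -0.12 within the mt-Nd3 class) and the nuclear envelope gene Sun2 (-0.33, and -0.21 without replicate 4) were lower at an unadjusted p under 0.05. The doublecortin relative Dclk1 was higher at that threshold, at 0.32 with all libraries, at 0.15 without replicate 4 and at 0.14 within the mt-Nd3 class.

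Neuronal identity genes gave estimates on both sides of 0. Of 15 tested genes of upper-layer neurons, 9 were above 0 and 6 below, with a median of 0.02 that was -0.05 without Cdk5r1-MADM replicate 4. Among them, Cux1, a transcription factor of these layers, had an estimate of -0.03 with an interval of -0.17 to 0.10. Mdga1, an adhesion protein of upper-layer cells, had the only unadjusted p under 0.05, at -0.38. Of 16 genes of deep-layer neurons, 8 were above 0 and 8 below (median 0.03, -0.08 without Cdk5r1-MADM replicate 1 and 0.12 within the mt-Nd3 class). Tbr1, a factor that specifies deep-layer neurons, had 162 CPM as its control median and 114 CPM in Cdk5r1-MADM, an estimate of -0.39 that turned to 0.10 against controls of the mt-Nd3 class. Pcp4, a calmodulin-binding protein of deep-layer cells, had the 1 unadjusted p under 0.05, at -0.67, and -0.43 within the mt-Nd3 class. Of 7 tested genes of subplate neurons, 2 were above 0 and 5 below, with a median of -0.10, and within the mt-Nd3 class 4 were above 0 and 3 below (median 0.02).

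General genes of projection neurons were lower in most members. Of 12, 2 were above 0 and 10 below, with a median of -0.16, and all 12 were bounded within 2-fold. Their summed level was 4179, 5560 and 7089 CPM in control-MADM and 4064, 5219 and 6015 CPM in Cdk5r1-MADM, so the ranges overlapped. Slc17a6, a vesicular glutamate transporter, had an estimate of -0.42 (adjusted p = 0.978 from edgeR), and -0.22 against the 6 controls of the mt-Nd3 class. Against these controls the median of the list was -0.02, with 6 members above 0 and 6 below. Without control-MADM replicate 3 the median was -0.09. Without control-MADM replicates 5 and 6 it was -0.22, with 2 members above 0 and 10 below. In that fit 3 members were lower at an unadjusted p under 0.05 with edgeR.

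Progenitor lists held estimates on both sides of 0. Of 17 genes of radial glia, 10 were above 0 and 7 below, with a median of 0.08 and a range over the fits without a single library of -0.01, without control-MADM replicate 3, to 0.14. Their summed level was 3702, 10915 and 15010 CPM in control-MADM and 10653, 11831 and 15357 CPM in Cdk5r1-MADM, and the lowest control values, in replicates 3 and 4, had no counterpart in Cdk5r1-MADM. Against controls of the mt-Nd3 class 7 members were above 0 and 10 below (median -0.01). Pax6, a transcription factor of radial glia, had an estimate of 0.22 with an interval of -0.12 to 0.57, and 0.14 without Cdk5r1-MADM replicates 3 and 4. Hopx, a gene of outer radial glia, had an estimate of -0.76 (-0.41 within the mt-Nd3 class) and was read at no more than 14.6 CPM in any library. Of 29 tested genes of proliferation, 19 were above 0 and 10 below (median 0.06). None had an unadjusted p under 0.05 with edgeR, where 4.68% of all genes did. In the fits without a single library their median lay between 0.01 and 0.12, highest without Cdk5r1-MADM replicate 5. Within the mt-Nd3 class 15 were above 0 and 14 below (median 0.01).

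Intermediate progenitors gave the most uneven split among progenitor lists. Of 10 tested genes, 1 was above 0 and 9 below, with a median of -0.26. The median lay between -0.31 and -0.18 in the fits without a single library. The summed level was 406, 748 and 1132 CPM in control-MADM and 513, 627 and 717 CPM in Cdk5r1-MADM. The Cdk5r1-MADM libraries thus lay inside the control range and lacked its upper part. Eomes, the transcription factor that defines these cells, had an estimate of -0.30 with an interval of -0.95 to 0.35, and Neurog2, a proneural factor, had -0.51. Mfap4 at -0.56 and Mfng, a modifier of Notch, at -0.46 had unadjusted p values under 0.05. Btg2, a cell cycle inhibitor, had medians of 119 and 138 CPM and an estimate of -0.07 that turned to 0.18 within the mt-Nd3 class. Mfap4 was at -0.12 and Mfng at -0.14 within it. Against the controls of the mt-Nd3 class, 4 members were above 0 and 6 below and the median was -0.02, while without control-MADM replicates 5 and 6 it was -0.35, with 1 above and 9 below. Class controls 7 to 10 had summed levels of 544, 601, 706 and 806 CPM, which overlap those of Cdk5r1-MADM.

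Interneuron genes pointed the other way. Interneurons arise outside the domain of Emx1, and their genes were read at low to moderate levels in these cells. Of 20 tested genes, 16 were above 0 and 4 below, with a median of 0.15, and 11 were bounded within 2-fold. The median lay between 0.10 and 0.24 in the fits without a single library, highest without control-MADM replicate 9. The summed level was 499, 744 and 1135 CPM in control-MADM and 753, 878 and 1015 CPM in Cdk5r1-MADM, inside the control range. Dlx2, a homeobox factor of the ventral forebrain, had the most reads of the list and an estimate of 0.11 (-0.08 within the mt-Nd3 class), and Nkx2-1 had a median of 0 CPM in control-MADM. The 4 members with an unadjusted p under 0.05 were Gad1, Sp9, Dlx6 and Calb2, all higher.

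Gad1, which makes the transmitter GABA, had 7.00, 19.5 and 31.2 CPM in control-MADM and 17.5, 26.5 and 44.3 CPM in Cdk5r1-MADM, an estimate of 0.56 that was 0.27 within the mt-Nd3 class. Calb2, the calcium-binding protein calretinin, had 18.6, 37.9 and 74.7 CPM in control-MADM and 41.8, 74.7 and 110 CPM in Cdk5r1-MADM. For Calb2, 3 of the 6 Cdk5r1-MADM libraries were above every control, and the estimate was 0.80 (adjusted p = 0.978 from edgeR). Against controls of the mt-Nd3 class, 10 interneuron genes were above 0 and 10 below, with a median of -0.00, and Calb2 was at 0.96. Without control-MADM replicates 5 and 6, 18 were above 0 and 2 below (median 0.15).

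**Figure D3:**
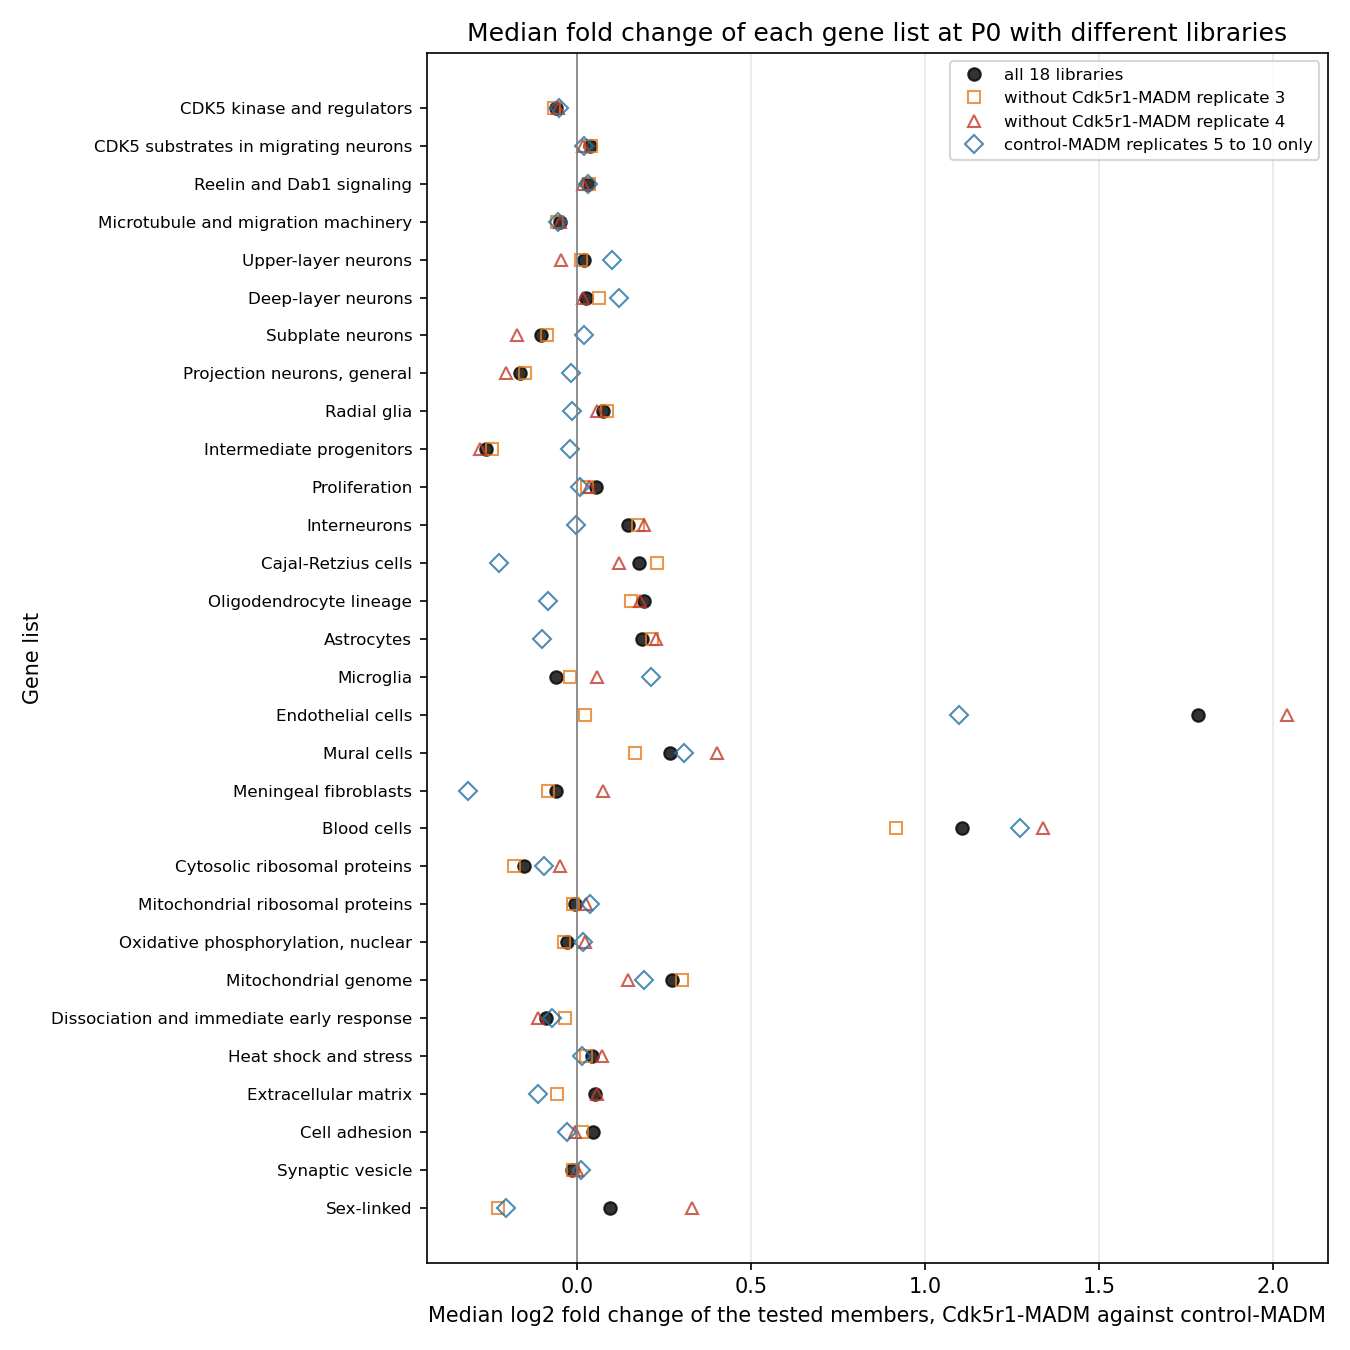
Each mark is the median log2 fold change of the tested members of a list, with all 18 libraries, without Cdk5r1-MADM replicate 3, without replicate 4, or with control-MADM replicates 5 to 10 as the only controls. The median of cytosolic ribosomal proteins was -0.15 with all libraries and -0.05 without replicate 4, and that of endothelial cells was 1.78 and 0.02 without replicate 3.

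Glial genes were also mostly above 0 with all controls. Of 9 tested genes of astrocytes, 9 were above 0, with a median of 0.19. Against controls of the mt-Nd3 class 1 was above 0 and 8 below (median -0.10). Without control-MADM replicates 5 and 6 all 9 were above 0 (median 0.28). The astrocyte median was 0.09 without Cdk5r1-MADM replicate 5. The summed level of astrocyte genes was 1153, 3910 and 6528 CPM in control-MADM and 3730, 4428 and 6439 CPM in Cdk5r1-MADM, inside the control range. Replicates 3 and 4 were the lowest controls. Of 9 tested genes of the oligodendrocyte lineage, 7 were above 0 and 2 below (median 0.19). Within the mt-Nd3 class 1 was above 0 and 8 below (median -0.08). Without control-MADM replicates 5 and 6, 9 were above 0 and 0 below (median 0.24). In the fits without a single library the median lay between 0.11 and 0.31. The summed level of this list was 398, 1559 and 2525 CPM in control-MADM and 1140, 1676 and 1980 CPM in Cdk5r1-MADM, inside the control range. Olig1, a factor of this lineage, had 241, 971 and 1668 CPM in control-MADM and 653, 1061 and 1399 CPM in Cdk5r1-MADM, an estimate of 0.08 that turned to -0.10 within the class. Myelin genes Mog and Mag were under the mean count needed for a test. Whether the class itself or something that goes with it moved these lists was not tested.

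Genes of other cell types were sparse. Of 12 tested microglia genes, 5 were above 0 and 7 below (median -0.06), and only 1 was bounded within 2-fold. Their summed level was 44.8 to 202 CPM in control-MADM and 31.8 to 232 CPM in Cdk5r1-MADM, and the median moved to -0.36 without Cdk5r1-MADM replicate 1 and to 0.06 without replicate 4, and it was 0.03 without control-MADM replicates 5 and 6. Within the mt-Nd3 class 9 microglia genes were above 0 and 3 below (median 0.21). Of 4 tested genes of meningeal fibroblasts, 1 was above 0 and 3 below (median -0.06, 0.07 without Cdk5r1-MADM replicate 4, 0.24 without control-MADM replicates 5 and 6, and -0.31 within the mt-Nd3 class). Of 6 tested blood genes, 5 were above 0 and 1 below, with a median of 1.11. Hbb-bs, a beta-globin, had the most reads and ranged to 166 CPM in control-MADM and 189 CPM in Cdk5r1-MADM, and its interval of -0.95 to 3.43 passed 2-fold upward. Of 8 genes of Cajal-Retzius cells, 2 were tested, 1 above 0 and 1 below. Their median was 0.18, with -0.22 within the mt-Nd3 class and 0.58 without control-MADM replicates 5 and 6.

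Endothelial genes had the largest median of all 30 lists, and it came from 1 library. Of 15 listed genes 7 were tested, all 7 with an estimate above 0 and 4 with an unadjusted p under 0.05, and the median was 1.78. The summed level was 97.2, 184 and 249 CPM in control-MADM. In Cdk5r1-MADM it was 876 CPM in replicate 3 and between 158 and 211 CPM in the other 5 libraries. Without replicate 3, 6 genes were tested, 3 above 0 and 3 below, with a median of 0.02. Against controls of the mt-Nd3 class, with replicate 3 kept, all 7 were above 0, with a median of 1.10 and 1 member at an unadjusted p under 0.05. Slco1c1, a transporter with the most reads of the list, had 105 and 132 CPM as medians and an estimate of 0.14, and 0.05 without replicate 3. Flt1, a receptor for VEGF, was at 50.2 CPM in replicate 3 and at most 3.34 CPM in the others of its group. The junction gene Cdh5 had a median of 0 CPM in control-MADM and Tek a median of 0 CPM in each group.

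Several genes near the top of the order by p belonged with that library. Col18a1, a collagen of basement membranes, was at 88.1 CPM in replicate 3 and at most 8.06 CPM in the other 5, and its estimate of 1.90 was 0.15 without replicate 3. Fbln5, a protein of elastic fibres, was at 69.9 CPM in replicate 3, and its estimate of 2.30 turned to -0.32 without it. Of 5 tested genes of mural cells, 4 were above 0 and 1 below (median 0.27, 0.17 without replicate 3 and 0.40 without replicate 4). Without control-MADM replicates 5 and 6, 5 were above 0 and 0 below (median 0.39). Rgs5, a gene of pericytes, had 45.4 CPM in replicate 3 and 30.3 CPM in replicate 4 against at most 14.6 CPM in control-MADM, and its estimate of 1.27 was 0.87 without replicate 3 and 0.42 without replicates 3 and 4.

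**Figure D4:**
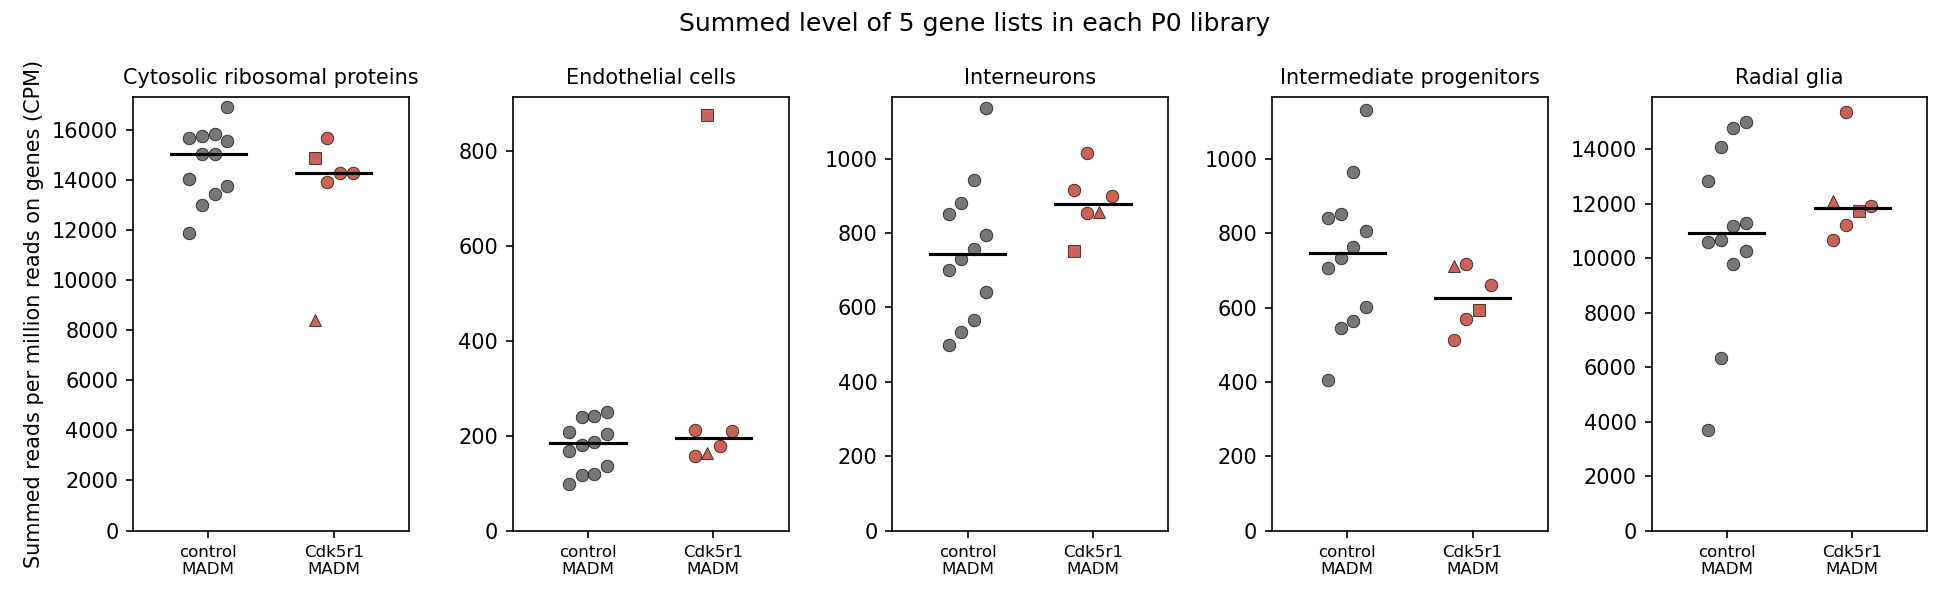
Each point is a P0 library and its height the summed level of all members of a list in CPM, with the group median as a line, the square marking Cdk5r1-MADM replicate 3 and the triangle replicate 4. Cytosolic ribosomal proteins summed to 8394 CPM in replicate 4 and to 13948 CPM or more in the other Cdk5r1-MADM libraries, and endothelial genes to 876 CPM in replicate 3.

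Among the lists of more than 50 genes, cytosolic ribosomal proteins leaned most to a side. All 78 were tested, 12 with an estimate above 0 and 66 below, and the median was -0.15. The summed level was 11901, 15049 and 16919 CPM in control-MADM. In Cdk5r1-MADM replicate 4 it was 8394 CPM, below every control, and in the other 5 libraries it was between 13948 and 15693 CPM, inside the control range. Without replicate 4 the median was -0.05, with 25 members above 0 and 53 below. It was -0.09 against controls of the mt-Nd3 class, with 15 above and 63 below, and -0.17 without control-MADM replicates 5 and 6, with 11 above and 67 below. More members were below 0 than above in each of these fits, and the median was closest to 0 without replicate 4.

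Of the 78, 73 were bounded within 2-fold and 57 within 1.5-fold. Members with an unadjusted p under 0.05 numbered 6, all lower, with 2 without replicate 4 and 10 without control-MADM replicates 5 and 6. Rps2, a small-subunit protein, had 67.9, 194 and 286 CPM in control-MADM and 75.3, 130 and 185 CPM in Cdk5r1-MADM. All 6 Cdk5r1-MADM libraries were below the control median, and the estimate of -0.65 was -0.54 without replicate 4 (adjusted p = 0.978 from edgeR with all libraries). In KO-Cdk5r1-MADM, against the same controls, the median of the list was 0.07 with 59 members above 0 and 19 below.

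Mitochondrial ribosomal proteins had a direction that depended on the libraries used. Of 77 tested, 33 were above 0 and 44 below, with a median of -0.01, and all 77 were bounded within 1.5-fold. Without replicate 4, 50 were above 0 and 27 below, with a median of 0.03. Within the mt-Nd3 class the median was 0.04, with 52 above and 25 below, and without control-MADM replicates 5 and 6, 25 were above 0 and 52 below, with a median of -0.06. Of 75 tested nuclear genes of oxidative phosphorylation, 22 were above 0 and 53 below, with a median of -0.03 that was 0.02 without replicate 4, and all 75 were bounded within 2-fold. Within the mt-Nd3 class 46 were above 0 and 29 below (median 0.02), and without control-MADM replicates 5 and 6, the lowest controls for this list, 12 were above 0 and 63 below (median -0.07). The mitochondrial genome had 13 listed genes, and mt-Co2, mt-Atp8, mt-Atp6 and mt-Nd4l were at or below 3 counts in all 18 libraries. The values of this list thus cover only part of the mitochondrial genes. All 8 tested members had an estimate above 0, with a median of 0.27, and 4 had an unadjusted p under 0.05, or 2 without replicate 4.

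The summed level of the mitochondrial genes was 7967, 10243 and 12052 CPM in control-MADM and 9610, 11866 and 15799 CPM in Cdk5r1-MADM, with replicate 4 highest. Without replicate 4 their median was 0.15, with all 8 above 0. Against controls of the mt-Nd3 class it was 0.19, with 6 above 0 and 2 below. The gene with the smallest p was mt-Nd6, a subunit of complex I, with 28.1, 55.5 and 77.7 CPM in control-MADM and 63.7, 79.2 and 116 CPM in Cdk5r1-MADM. Of the 6 Cdk5r1-MADM libraries, 3 were above every control, and the estimate was 0.55 (adjusted p = 0.923 from edgeR).

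Of 25 genes of dissociation and the immediate early response, 10 were above 0 and 15 below (median -0.09, and -0.20 without Cdk5r1-MADM replicate 1). Fos, which had the most reads, had an estimate of -0.22, and -0.11 without replicate 4. Of 16 tested genes of heat shock and stress, 9 were above 0 and 7 below (median 0.04). Of 67 tested genes of the extracellular matrix, 39 were above 0 and 28 below (median 0.05, and -0.06 without replicate 3), and 5 were higher and 3 lower at an unadjusted p under 0.05, against 0 higher and 4 lower with edgeR without replicate 3. Within the mt-Nd3 class 27 matrix genes were above 0 and 40 below (median -0.11). Without control-MADM replicates 5 and 6, 48 were above 0 and 18 below (median 0.15), with 10 higher and 3 lower at that threshold. Of 91 tested genes of cell adhesion, 50 were above 0 and 41 below (median 0.05, -0.00 without replicate 4, and -0.03 with 40 above and 50 below within the mt-Nd3 class), and 5 were higher and 1 lower at that threshold, against 1 and 1 without replicate 3. Without control-MADM replicates 5 and 6, 55 adhesion genes were above 0 and 33 below (median 0.10), with 10 higher and 2 lower. Of 50 tested synaptic vesicle genes, 22 were above 0 and 28 below (median -0.01, and 0.06 without control-MADM replicate 3), and 47 were bounded within 2-fold. The 5 tested sex-linked genes differed between libraries of each group with the sex of the animal, 4 above 0 and 1 below (median 0.09, with -0.24 to 0.33 when a library was left out, lowest without Cdk5r1-MADM replicate 1).

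The same genotypes were compared at E16, in libraries that share no sample with those at P0. Of 12801 genes tested there, 2 were called by edgeR (0.0156%), Cdk5r1 and the pseudogene Gm10039, and AA465934 had an estimate of 0.12. At E16, Gm10039 was at 1.75 to 69.2 CPM in control-MADM and at 3.25 to 5.81 CPM in the well aligned Cdk5r1-MADM libraries. It also varied within a genotype at P0, at 2.55 to 50.3 CPM in control-MADM and 1.82 to 56.4 CPM in KO-Cdk5r1-MADM. Whether its call at E16 came from the loss of Cdk5r1 was not tested. The difference between the P0 and E16 changes was called for 1 of 13007 genes (0.00769%), AA465934, at 2.89 on the log2 scale (P0 minus E16). Cdk5r1 had an estimate of -1.54 at E16. The bounds were wider at E16, with 10540 genes (82.3%) within 2-fold.

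Some list medians at E16 lay on the same side of 0 as at P0 and others did not. For astrocytes the E16 median was 0.05 where P0 had 0.19, and for nuclear genes of oxidative phosphorylation it was -0.11 where P0 had -0.03. For cytosolic ribosomal proteins the E16 median was -0.05, with 31 members above 0 and 47 below, where P0 had -0.15. For intermediate progenitors it was 0.05 where P0 had -0.26. For interneurons it was -0.69, with 1 member above 0 and 19 below, where P0 had 0.15. For genes of the mitochondrial genome it was -0.28 where P0 had 0.27. Differences between these medians were not tested. Gm28438, which defines the mitochondrial class at P0, had an estimate of -4.41 at E16 (adjusted p = 0.736 from edgeR). The class may thus be unbalanced between the groups at E16 as well. Whether the E16 medians depend on the class or on single libraries was not tested.

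KO-Cdk5r1-MADM shares its controls with the sparse comparison, and its values are given only side by side. Its median was 0.19 for intermediate progenitors, where the sparse median was -0.26. For interneurons it was -0.68 where the sparse median was 0.15, and for radial glia it was -0.65 where the sparse median was 0.08. For general projection neuron genes it was 0.39 where the sparse median was -0.16. All sparse libraries belonged to the mt-Nd3 class and all KO-Cdk5r1-MADM libraries to the Gm28438 class. Within 2-fold, 88.3% of genes were bounded in KO-Cdk5r1-MADM and 90.0% in Cdk5r1-MADM.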

How the data were processed

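The values are counts of reads per gene that the authors made by aligning SMART-Seq v2 reads to mm10 with STAR and deposited without normalization. Column 2, which ignores the strand, was used for each library. Reads of the 18 libraries that lay on a gene made up 55.7% and alone entered library sizes and tests. Of the rest, 25.7% were unmapped, 13.2% fell outside genes and 5.45% matched several genes. All 28 P0 libraries of the 3 genotypes entered a single fit by edgeR 4.0.16 under R 4.3.3, with TMM factors and robust quasi-likelihood F tests. Genes needed a mean count above 10 to be tested. Adjustment of p was over all tested genes by the Benjamini-Hochberg method. The 95% intervals are Wald intervals from the same fit, and their coverage is not reported here. They cover counting error and the spread between libraries, and reads carry no molecular identifiers, so a floor of 3 counts covers counting error only. DESeq2 1.42.0 was an alternative. Tables and figures were made in Python 3.11.15 with matplotlib 3.10.9. Of 53379 gene identifiers, 53274 matched the annotation without their version.

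Genes are named by a rule: Cdk5, Cdk5r1 and Cdk5r2, called genes, the 10 with the smallest p in each direction, the most abundant member and 3 members with the smallest p of each list, and genes within 1 Mb of Cdk5r1. Genes named outside it, such as list members that define a cell type and genes near AA465934, serve as description. The members and the 30 lists were chosen with earlier results of these data known. Alternatives were DESeq2, RLE size factors, a fit of the 2 compared genotypes alone, a mean-count minimum of 50 or none, blocks by replicate number, leaving out controls 11 and 12, mitochondrial class, sex or reads outside genes as a covariate, same-class controls, and each library left out. After seeing the data, edgeR without its legacy setting, leaving out Cdk5r1-MADM replicates 3 and 4, and leaving out control-MADM replicates 5 and 6 were added. Some genes that the rule names are not reported here and were left out of the search for libraries that stand apart. Coverage of the deleted region was not analysed here.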

Additional observations from a re-analysis of the deposited data

Results flagged for a closer look

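Values were examined for a library far from the others of its group by the gap to the nearest value over the range, a rule by which chance alone flags about 1 in 20 groups. Genes named for a small p in this comparison were among them, so the flags are not independent of the test. In Cdk5r1-MADM replicate 4 the lowest of the group were Cdk5 (118 CPM), AA465934 (45.2), Hsp90ab1 (1358) and Cox8a (273), and the summed cytosolic ribosomal proteins (8394), nuclear oxidative phosphorylation genes (17170) and heat shock genes (3045). In the same library the highest were Dclk1 (508), Rap1a (35.0), Dab1 (646), Ccnd1 (128), Ncan (4003), Ncam1 (1263), Mrps22 (97.8), Psmd11 (195) and Cdk5r1 (122), and the share of uniquely aligned reads (78.45%). In replicate 3 the highest were Gja5 (10.9), Flt1 (50.2), Esam (51.5), Col18a1 (88.1), Fbln5 (69.9), Cldn5 (297) and the summed endothelial genes (876).

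Other Cdk5r1-MADM libraries gave the highest value of Klf4 (48.9) and Lhfpl3 (33.3), of summed radial glia genes (15357) and of summed astrocyte genes (6439) in replicate 1. Cdk5r2 (46.6) and Utp6 (31.2) were highest in replicate 5, and Nxph4 (49.0) in replicate 6. In KO-Cdk5r1-MADM replicate 7 had the highest Cdk5r1 (111 CPM). The log2 fold change of AA465934 differed between P0 and E16 by 2.89. In E13 control-MADM libraries, which were not compared here, AA465934 reached 148 CPM. The causes were not tested.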

How the results depend on the processing

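The calls of Cdk5r1 and AA465934 were kept in every alternative and without each library in turn. The log2 fold change of Cdk5r1 was between -1.59 and -1.26 over the alternatives and between -1.53 and -1.23 without a library, and that of AA465934 between 2.90 and 3.38 and between 2.92 and 3.09. The number bounded within 2-fold was between 9582 (of 9758, 98.2%, mean count above 50) and 11921 (of 36526, 32.6%, no minimum) over the alternatives, so the share depends on the minimum, and it was between 11406 and 11773 without a library. The replicate numbers of the groups share only a number, since libraries of the same number correlated at -0.200 to 0.120. With that number as a block and control-MADM replicates 7 to 12 left out, 3 genes were called and 1456 had an unadjusted p under 0.05, and Dusp4 had -1.02. The block and the loss of controls cannot be told apart there. Fst had 1.64 and was called without the legacy setting of edgeR. With mitochondrial class as a covariate and with same-class controls, Gm28438 turned to 1.83 and 1.83, Cdk5r2 to 0.0103 and 0.0106, and Cdk5 to 0.00519 and 0.00520. Without a library Cdk5 was -0.0964 to 0.00682, above 0 only without Cdk5r1-MADM replicate 4. Fbln5 was -0.32 to 2.55 without a library, with the lowest value without Cdk5r1-MADM replicate 3, and turned to -0.19 without replicates 3 and 4. The endothelial median was 0.0240 to 2.07 without a library, lowest without replicate 3, and 0.0533 without replicates 3 and 4. The cause was not tested. With 6 mutant libraries and pooled cells, small changes and changes in a few cells were not bounded. The mitochondrial class was not balanced between the groups.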

Other observations

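AA465934 also differed between E13 control-MADM libraries, at 112 to 148 CPM in 5 of 9 and at 1.77 to 12.1 CPM in the others. In KO-Cdk5r1-MADM at E13 it was at 92.3 to 172 CPM. In the P0 knockout libraries of the Dab1 data set it was at 4.17 to 25.0 CPM. The summed level of blood genes was 13.3 to 353 CPM in control-MADM and 26.3 to 398 CPM in Cdk5r1-MADM at P0, a wide range in each group.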
